A study of Mus musculus with 8 samples.

Results

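The genes described here are 10 interferon-inducible GTPases of mouse macrophages, the guanylate-binding proteins *Gbp2*, *Gbp3*, *Gbp5*, *Gbp6*, *Gbp7* and *Gbp9* and the immunity-related GTPases *Irgm1*, *Irgm2*, *Igtp* and *Iigp1*. They were taken by name from a table of 24539 genes, and all 10 passed the filter on low counts that left 11501 genes for testing. RNA was sequenced from bone marrow-derived macrophages (BMDMs) of male C57BL/6 mice aged 7 weeks. The 4 groups were KO-LPS, *Tut7*-/- cells given lipopolysaccharide (LPS) for 4 h; WT-LPS, wild-type cells given LPS in the same way; KO-Ctrl, untreated *Tut7*-/- cells; and WT-Ctrl, untreated wild-type cells. Each group had 2 libraries. The *Tut7*-/- mice were made with CRISPR/Cas9 guides to the first intron and to a later intron of *Tut7*, which encodes an enzyme that adds uridines to the 3′ ends of RNA. All groups were grown from marrow in L929 cell-conditioned medium and then kept overnight in M-CSF. Whether the 2 libraries within each group represent different mice or different cultures is not stated in the labels. The p-values therefore cover only the spread of these libraries, and that spread may be technical.

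Interferons made by infected or LPS-stimulated cells signal through JAK kinases to transcription factors that bind interferon-stimulated response elements (ISRE) and gamma-activated sites (GAS) before the start sites of their target genes. Guanylate-binding proteins are large GTPases of the dynamin superfamily that assemble on the vacuoles and surfaces of intracellular bacteria and parasites, and the mouse genes lie in a cluster on chromosome 3 and a cluster on chromosome 5. Immunity-related GTPases are smaller. *Irgm1*, *Irgm2* and *Igtp* (also called Irgm3) encode regulatory members that reside on host membranes and hold the effector members, such as the product of *Iigp1* (Irga6), inactive until these load onto a parasite vacuole. Both families are among the most strongly interferon-induced genes of macrophages.

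RefSeq start-site sequences (build GRCm38.p6, which is mm10) were matched to 7 of the 10 genes, with 8 start sites. They are shown because the LPS response described next was common to all of these genes. The 250 bases before each start were searched on both strands for ISRE (TTTC, any 2 bases, TTTC), GAS (TTCNNNGAA) and the NF-kB motif. Each of the 7 genes had an ISRE match, against 2.977% of 32851 promoters of the same length. The stretch around each match is printed 5′ to 3′ on the strand of the gene, with the ISRE match in capitals. *Gbp3* and *Irgm1* each had 2 overlapping matches, and the second start site of *Gbp3* had none. On the printed strand the immunity-related genes carry the motif in its reverse complement. The stretches lie at chr3:142620579-142620638 (+) for *Gbp2*, chr3:142559974-142560015 (+) for *Gbp3*, chr3:142496744-142496803 (+) for *Gbp5*, chr3:142530258-142530317 (+) for *Gbp7*, chr11:48871421-48871475 (-) for *Irgm1*, chr11:58214888-58214947 (+) for *Irgm2* and chr11:58199497-58199555 (+) for *Igtp*.
Gbp2: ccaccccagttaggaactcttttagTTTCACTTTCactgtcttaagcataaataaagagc
Gbp3: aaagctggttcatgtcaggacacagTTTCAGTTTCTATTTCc
Gbp5: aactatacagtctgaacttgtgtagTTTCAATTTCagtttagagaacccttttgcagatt
Gbp7: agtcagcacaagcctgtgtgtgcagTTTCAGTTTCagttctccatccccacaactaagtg
Irgm1: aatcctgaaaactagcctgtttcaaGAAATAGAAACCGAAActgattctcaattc
Irgm2: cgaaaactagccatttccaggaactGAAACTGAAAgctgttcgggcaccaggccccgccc
Igtp: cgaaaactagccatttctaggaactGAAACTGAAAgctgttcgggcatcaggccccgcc

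*Irgm2* and *Igtp*, neighbours on chromosome 11, had the most alike upstream sequences of all pairs. Aligned over the whole 250 bases they had 68.1% identity, while no other pair exceeded 51.1%, and their best local alignment had 194 identical bases in 220 columns (88.2%). GAS matches were present in 4 of the 7 genes, *Gbp5* and *Gbp7* with 2 each and *Irgm2* and *Igtp* with 1 each, against 7.02% of all promoters. The NF-kB motif matched before *Gbp5* alone among the 7, against 7.251% of all promoters. Among the other listed relatives of these GTPases with a promoter sequence, 4 of 8 had an ISRE match and 3 of 8 a GAS match. A match describes the letters and does not show that a factor bound there.

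**Figure D1:**
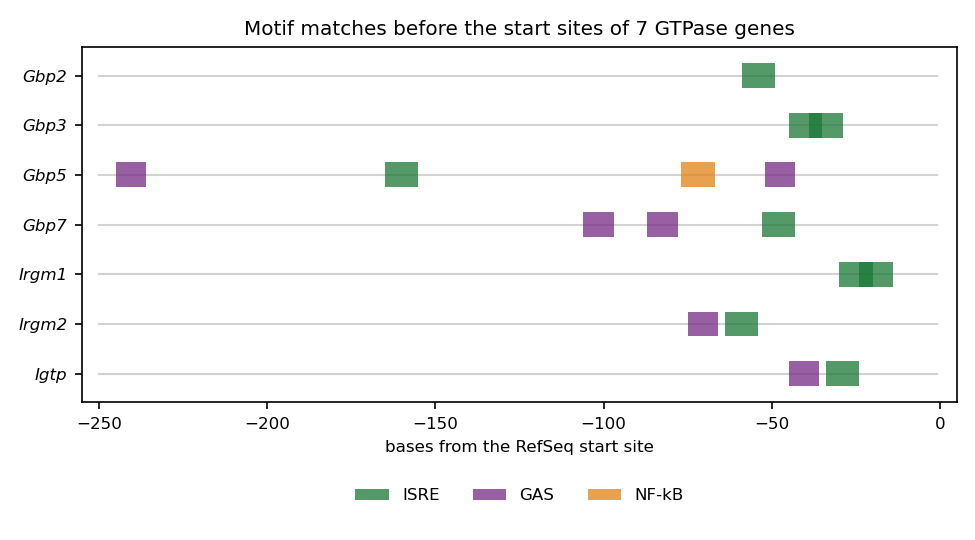
Positions of ISRE, GAS and NF-kB motif matches in the 250 bases before the RefSeq start sites of 7 GTPase genes, in bases from the start site; each grey line is 1 promoter that had a match. The ISRE matches of 6 genes lie within the last 64 bases before the start, and that of Gbp5 begins at -165.

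The libraries held 3767900 to 9394632 counts. The targeted gene, listed as *Zcchc6*, had 18 and 19 counts in KO-LPS, 1162 and 716 in WT-LPS, 17 and 23 in KO-Ctrl and 427 and 615 in WT-Ctrl libraries. The summed level of 9 macrophage markers was 20852 to 23018 CPM (counts scaled to a common library size) in KO-LPS, 18106 to 18128 in WT-LPS, 27697 to 40091 in KO-Ctrl and 20611 to 20990.3 in WT-Ctrl. Markers of other blood cells were partly detected. Of 10 T and NK cell markers, 6 had 0 counts in all 8 libraries (*Cd3g*, *Cd3d*, *Ncr1*, *Nkg7*, *Gzmb*, *Prf1*), and the summed level was 6.55 to 14.4 CPM, most of it *Cd4*. Of 7 neutrophil markers, 4 were at 0 (*Ly6g*, *Elane*, *Mpo*, *Retnlg*), with a sum of 0.550 to 3.71 CPM, and of 5 B cell markers 1 was at 0 (*Pax5*), with a sum of 0.412 to 3.30 CPM. Of 6 dendritic cell markers 1 was at 0 (*Siglech*), and their sum moved with LPS as the GTPase genes did, at 13.5 to 15.8 CPM in KO-LPS, 18.4 to 19.4 CPM in WT-LPS, 0.369 to 0.886 CPM in KO-Ctrl and 0.789 to 1.10 CPM in WT-Ctrl. After LPS most of this sum was *Xcr1*, a chemokine receptor gene, which was higher after LPS in both genotypes (log2 fold changes 7.64 in *Tut7*-/- and 6.14 in wild-type cells). *Xcr1* had only 0 and 1 raw counts in KO-Ctrl and 3 and 2 in WT-Ctrl libraries. Summed stromal markers (8 genes, all detected) differed by genotype, at 20.7 to 21.2 CPM in KO-LPS and 85.9 to 96.8 CPM in WT-LPS, and at 24.2 CPM in both KO-Ctrl and 63.8 to 72.1 CPM in WT-Ctrl libraries. The part of these marker differences in the results below was not tested. Of all 4 groups, KO-Ctrl had the least alike libraries (Pearson r of log2 CPM 0.968, against 0.974 to 0.985 in the others). In KO-Ctrl replicate 1 the 20 genes with the most counts took 21.3% of the library.

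LPS raised all 10 GTPase genes in both genotypes, and 5 of them then lay above 99% of all genes of the table per length. The 10 genes together held 1.34% and 1.19% of all counts in KO-LPS libraries and 1.36% and 1.30% in WT-LPS libraries, against 0.0123% and 0.0208% in KO-Ctrl and 0.0274% and 0.0315% in WT-Ctrl libraries. All 10 passed an adjusted p of 0.05 as higher after LPS in *Tut7*-/- BMDMs, where 34.8% of all tested genes did so, and all 10 in wild-type BMDMs, where 27% did (quasi-likelihood test of edgeR, adjusted after Benjamini-Hochberg). The highest adjusted p among them was 1e-08 in *Tut7*-/- and 7.7e-08 in wild-type cells. The median log2 fold change of the 10 was 7.95 in *Tut7*-/- and 7.14 in wild-type cells, beside -0.07 and -0.17 over all genes tested. In bulk RNA, more cells with a transcript and more transcript per cell cannot be told apart. All 10 calls held under each alternative that tested all 10 genes. With library size alone as the scale, 2853 genes were higher and 5377 lower after LPS in *Tut7*-/- cells, against 3999 and 3823 with TMM scaling, and 1755 were higher and 6595 lower in wild-type cells, against 3107 and 3491.

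**Figure D2:**
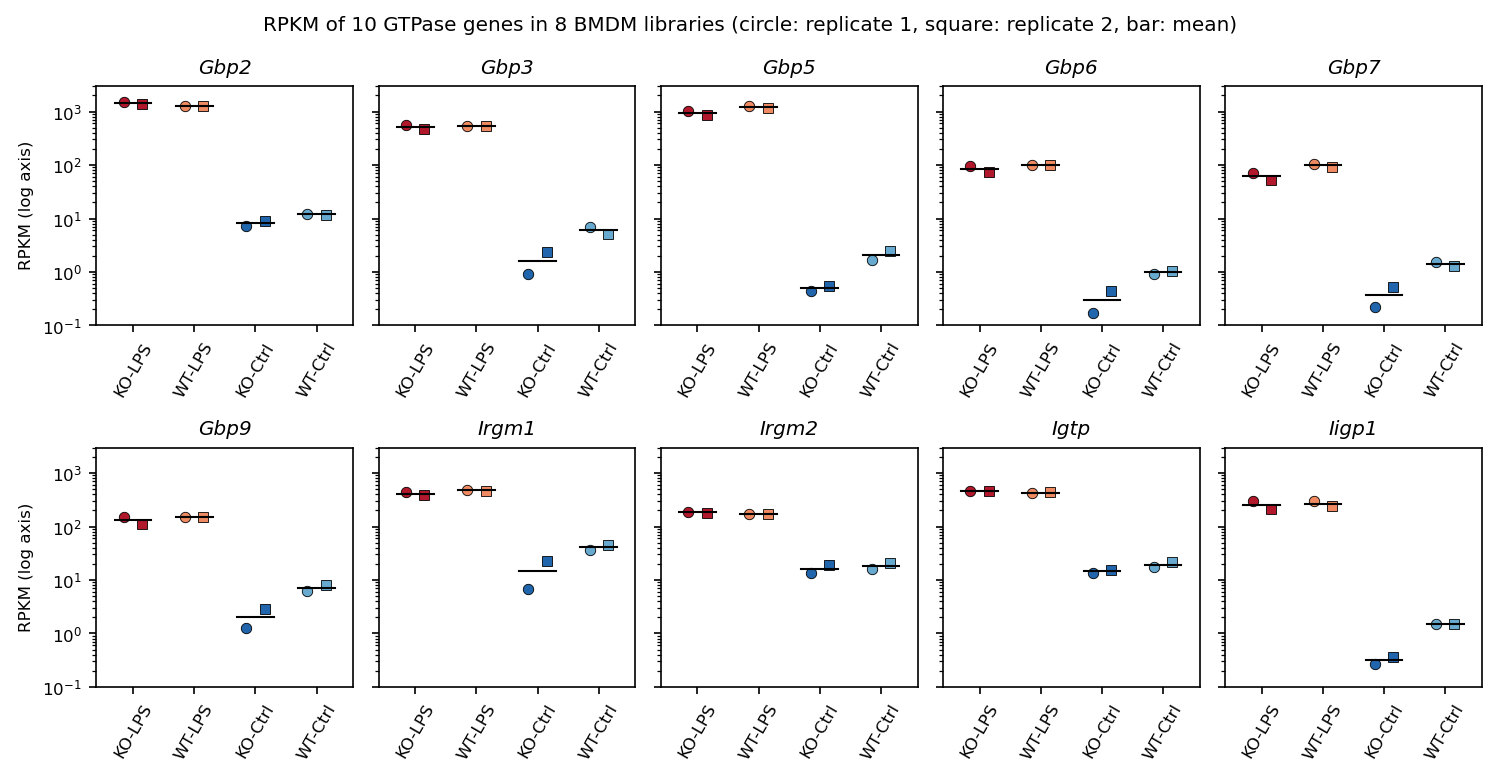
RPKM (log axis) of each GTPase gene in the 8 libraries, by group; circles are replicate 1, squares replicate 2 and bars the mean of 2. LPS libraries of both genotypes lie far above untreated ones for every gene, and the KO-Ctrl points lie below WT-Ctrl for most genes, with Irgm1 at 6.69 and 22.2 RPKM in KO-Ctrl and 37.0 and 44.7 RPKM in WT-Ctrl.

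Of the chromosome 3 guanylate-binding genes, *Gbp2* (chr3:142620663-142638008) had the highest level per length after LPS. Its product coats *Toxoplasma* vacuoles and exposed bacteria and is anchored to membranes by a prenyl group. *Gbp2* stood at 4765 and 4624 CPM in KO-LPS, 4149.7 and 3893 CPM in WT-LPS, 17.7 and 19.1 CPM in KO-Ctrl and 22.8 and 19.6 CPM in WT-Ctrl. The mean was 255-fold higher after LPS in *Tut7*-/- and 189.6-fold higher in wild-type cells (log2 fold changes 7.99 ± 0.26 and 7.57 ± 0.26, ± standard error). Scaled for transcript length as well as depth (RPKM), *Gbp2* reached 1439 ± 50.3 RPKM in KO-LPS and 1281 ± 21.02 RPKM in WT-LPS (SD, n = 2), above 99.9% and 99.8% of all genes.

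*Gbp5* (chr3:142496934-142522344), whose product is membrane-anchored like that of *Gbp2* and is known in mice for promoting NLRP3 inflammasome assembly, had the largest response of the 10. It was almost silent before LPS, with 11 and 16 raw counts in KO-Ctrl and 35 and 60 in WT-Ctrl libraries. In CPM these were 1.35 and 1.42 in KO-Ctrl and 3.85 and 5.26 in WT-Ctrl, and after LPS *Gbp5* stood at 4104 and 3467 CPM in KO-LPS and at 4944 and 4467 CPM in WT-LPS. The mean rose 2734-fold in *Tut7*-/- and 1033-fold in wild-type cells (log2 fold changes 11.40 ± 0.33 and 10.00 ± 0.31).

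*Gbp3* (chr3:142560016-142573213), a further member of the chromosome 3 cluster that is recruited to parasite vacuoles, ranked behind *Gbp2* and *Gbp5* per length after LPS. It had 1947 and 1678 CPM in KO-LPS, 1869 and 1739.7 CPM in WT-LPS, 2.46 and 5.23 CPM in KO-Ctrl and 13.6 and 9.29 CPM in WT-Ctrl. The mean rose 472-fold in *Tut7*-/- and 157-fold in wild-type cells. *Gbp7* (chr3:142530336-142550151), whose product has been tied to delivery of the phagocyte oxidase in mice, was the least abundant of the 10 per length after LPS, at 62.2 ± 12.5 RPKM in KO-LPS and 100.04 ± 9.39 RPKM in WT-LPS. It had 526 and 402 CPM in KO-LPS, 782 and 658 CPM in WT-LPS, 1.23 and 2.48 CPM in KO-Ctrl and 6.38 and 5.08 CPM in WT-Ctrl, a rise of 250.1-fold in *Tut7*-/- and 126-fold in wild-type cells.

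The chromosome 5 members *Gbp6* (chr5:105270702-105295871) and *Gbp9* (chr5:105076464-105110357), also vacuole-recruited, reached lower levels per length than *Gbp2*, *Gbp5* and *Gbp3* and higher ones than *Gbp7*. *Gbp9* had 725 and 532 CPM in KO-LPS, 716 and 688 CPM in WT-LPS, 4.55 and 8.86 CPM in KO-Ctrl and 17.3 and 20.4 CPM in WT-Ctrl, a rise of 93.8-fold in *Tut7*-/- and 37.2-fold in wild-type cells. *Gbp6* had 554 and 429.8 CPM in KO-LPS, 574 and 541 CPM in WT-LPS, 0.737 and 1.59 CPM in KO-Ctrl and 2.97 and 3.16 CPM in WT-Ctrl, a rise of 422-fold in *Tut7*-/- and 182-fold in wild-type cells. The *Gbp6* values are uncertain, because 86.05% of all stretches of 75 bases in its longest coding transcript also occur in another annotated gene. Of all its stretches, 51.66% occur in *Gbp10*. The shares were 11.43% for *Gbp7*, 8.37% for *Igtp* and under 5% for the other 7 genes, with 0 for *Irgm1* and *Iigp1*. Against only the genes that were counted here, the share was 57.15% for *Gbp6* and 1.26% for *Gbp7*. How the counting divided such reads is not stated.

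The regulatory immunity-related genes had the highest levels per length before LPS and responded less than the other genes, except that *Gbp9* changed slightly less than *Igtp* in wild-type cells. *Irgm1* (chr11:48865245-48871420) had 1282 and 1168 CPM in KO-LPS, 1395 and 1312 CPM in WT-LPS, 15.0 and 42.2 CPM in KO-Ctrl and 61.6 and 69.4 CPM in WT-Ctrl. Its mean was 42.8-fold higher after LPS in *Tut7*-/- and 20.7-fold higher in wild-type cells. *Igtp* (chr11:58199556-58207592) had 1209 and 1243 CPM in KO-LPS, 1116.5 and 1106 CPM in WT-LPS, 27.3 and 26.9 CPM in KO-Ctrl and 26.0 and 30.2 CPM in WT-Ctrl, a rise of 45.2-fold in *Tut7*-/- and 39.5-fold in wild-type cells. *Irgm2* (chr11:58214977-58222783), known in mice for restraining caspase-11 activation, had 854 and 860.4 CPM in KO-LPS, 798 and 749.8 CPM in WT-LPS, 46.8 and 57.2 CPM in KO-Ctrl and 41.5 and 50.9 CPM in WT-Ctrl. Its rise of 16.5-fold in *Tut7*-/- and 16.8-fold in wild-type cells was the smallest of the 10.

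*Iigp1* (chr18:60373616-60392634), the effector member, was with *Gbp6* and *Gbp7* among the 3 lowest genes per length before LPS and had the second largest response. It had 7 and 11 raw counts in KO-Ctrl and 32 and 37 in WT-Ctrl libraries. In CPM it stood at 1214 and 904 in KO-LPS, 1214 and 937 in WT-LPS, 0.860 and 0.974 in KO-Ctrl and 3.52 and 3.24 in WT-Ctrl. The mean rose 1154-fold in *Tut7*-/- and 318-fold in wild-type cells (log2 fold changes 10.14 ± 0.35 and 8.31 ± 0.31).

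The order of levels per length after LPS was *Gbp2*, *Gbp5*, *Gbp3*, then *Igtp* (456 ± 2.60 RPKM) and *Irgm1* (414 ± 32.9 RPKM), *Iigp1*, *Irgm2*, *Gbp9*, *Gbp6* (85.9 ± 16.5 RPKM) and *Gbp7* in KO-LPS (mean ± SD, n = 2 each). *Igtp* and *Irgm1* changed places in WT-LPS, at 429.9 ± 9.56 and 475 ± 6.98 RPKM. The library ranges of *Gbp2* and *Gbp5* did not overlap in KO-LPS (1403 to 1475 and 855 to 1032 RPKM), nor in WT-LPS (1266 to 1296 and 1181 to 1255 RPKM). Those of *Gbp6* and *Gbp7* were apart in KO-LPS (74.2 to 97.5 and 53.3 to 71.0 RPKM) and overlapped in WT-LPS (100.1 to 102 and 93.4 to 107 RPKM). Before LPS the order differed. *Irgm2* (16.2 ± 4.14 RPKM), *Igtp* (14.5 ± 1.56 RPKM) and *Irgm1* (14.5 ± 11.0 RPKM) led in KO-Ctrl with overlapping libraries, while *Irgm1* (40.8 ± 5.44 RPKM) led in WT-Ctrl, ahead of *Igtp* (19.3 ± 3.02 RPKM) and *Irgm2* (18.3 ± 3.53 RPKM), which overlapped each other. *Gbp2* followed in both, at 8.15 ± 1.40 RPKM in KO-Ctrl and 11.9 ± 0.66 RPKM in WT-Ctrl, and *Gbp5*, *Gbp6*, *Gbp7* and *Iigp1* lay under 3 RPKM in all 4 untreated libraries.

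**Figure D3:**
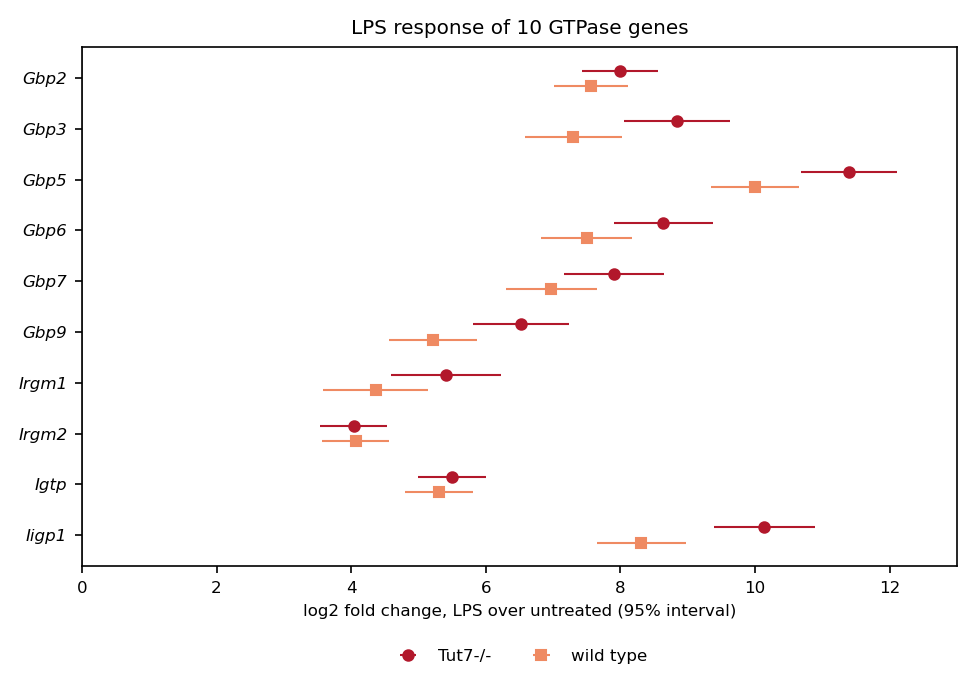
Log2 fold change of each GTPase gene with LPS over untreated cells, with 95% intervals from the edgeR model, in Tut7-/- (circles) and wild-type (squares) BMDMs. Gbp5 has the largest change (11.40 in Tut7-/- and 10.00 in wild type) and Irgm2 the smallest (4.04 and 4.06).

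The next comparison asked whether loss of *Tut7* altered the GTPase genes after LPS. None of the 10 passed the test in KO-LPS against WT-LPS (edgeR's quasi-likelihood test), with 0 higher and 0 lower. Of all tested genes, 0.626% were higher and 0.774% lower. At an unadjusted p under 0.05, 1 of the 10 was lower. At that p with a log2 fold change over 0.2 in size, 831 of 11501 genes were higher and 649 lower. DESeq2's Wald test and limma on RPKM also called 0 of the 10. Their log2 fold changes ran from -0.63 to 0.22 with a median of -0.08, beside 0.10 over all genes. For 9 of the 10 the 95% interval lay within -0.82 and 0.63, the lower bound that of *Irgm1* and the upper that of *Gbp2*, so a change of 1 log2 unit in either direction lies outside it. *Gbp7* was the exception. Its KO-LPS libraries, at 526 and 402 CPM, both lay below the WT-LPS libraries at 782 and 658 CPM, and its log2 fold change was -0.63 (95% interval -1.15 to -0.12, unadjusted p = 0.018, adjusted p = 0.26). *Gbp7* passed as lower without both KO-Ctrl libraries (adjusted p = 0.011 by the quasi-likelihood test), where 482 of 11283 genes were lower. It also passed in fits of the 4 LPS libraries alone (0.00055 by the quasi-likelihood test and 2.1e-06 by edgeR's exact test). Those fits called 1012 and 1147 of 10088 genes lower, against 89 of 11501 in the model of all 8 libraries. The adjusted p of *Gbp7* ran from 2.1e-06 to 1 over all alternatives. *Gbp5*, at 4104 and 3467 CPM in KO-LPS against 4944 and 4467 CPM in WT-LPS (-0.31, adjusted p = 0.57), also passed in those 2 fits of 4 libraries (0.0062 and 0.0034). Corrected for the length and GC content of transcripts, the *Gbp7* difference was -0.32 (adjusted p = 0.2).

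Before LPS the picture was another one. In KO-Ctrl against WT-Ctrl, 7 of the 10 genes passed as lower and 0 as higher, where 22.2% of all tested genes were lower and 14.8% higher. The 7 were *Gbp3*, *Gbp5*, *Gbp6*, *Gbp7*, *Gbp9*, *Irgm1* and *Iigp1*, so 5 of the 6 guanylate-binding genes and 2 of the 4 immunity-related genes. For each, and for *Gbp2*, both KO-Ctrl libraries lay below both WT-Ctrl libraries. For *Gbp2* the nearest libraries stood at 19.1 CPM in KO-Ctrl and 19.6 CPM in WT-Ctrl. How many of all tested genes were separated in this way was not counted, so the separation cannot be read as particular to these genes. The median log2 fold change of the 10 was -1.39, beside 0.01 over all genes tested. With library size alone as the scale these medians were -1.67 and -0.28, the same number of members passed, and 322 genes were higher and 2980 lower, against 1707 and 2552 with TMM scaling.

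The largest difference was that of *Iigp1*, at 0.860 and 0.974 CPM in KO-Ctrl against 3.52 and 3.24 CPM in WT-Ctrl, with a log2 fold change of -1.85 (95% interval -2.64 to -1.06, adjusted p = 0.0022). *Gbp5*, at 1.35 and 1.42 CPM in KO-Ctrl against 3.85 and 5.26 CPM in WT-Ctrl, had -1.71 (-2.38 to -1.05, adjusted p = 0.0014). Both rest on few reads, under 20 counts per KO-Ctrl library, as does *Gbp6* with 6 and 18, and *Gbp7* had 10 and 28. The log2 fold changes of the other 5 were -1.56 for *Gbp7* (adjusted p = 0.0036), -1.53 for *Gbp3* (0.0027), -1.47 for *Gbp9* (0.0022), -1.32 for *Gbp6* (0.013) and -1.18 for *Irgm1* (0.014). *Irgm1* was the best counted of the 7, with 122 and 477 raw counts in KO-Ctrl against 560 and 792 in WT-Ctrl libraries. *Gbp2* (-0.20, -0.64 to 0.24), *Irgm2* (0.17, -0.28 to 0.62) and *Igtp* (-0.05, -0.49 to 0.38) did not pass, and the KO-Ctrl and WT-Ctrl libraries of *Irgm2* and *Igtp* overlapped.

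**Figure D4:**
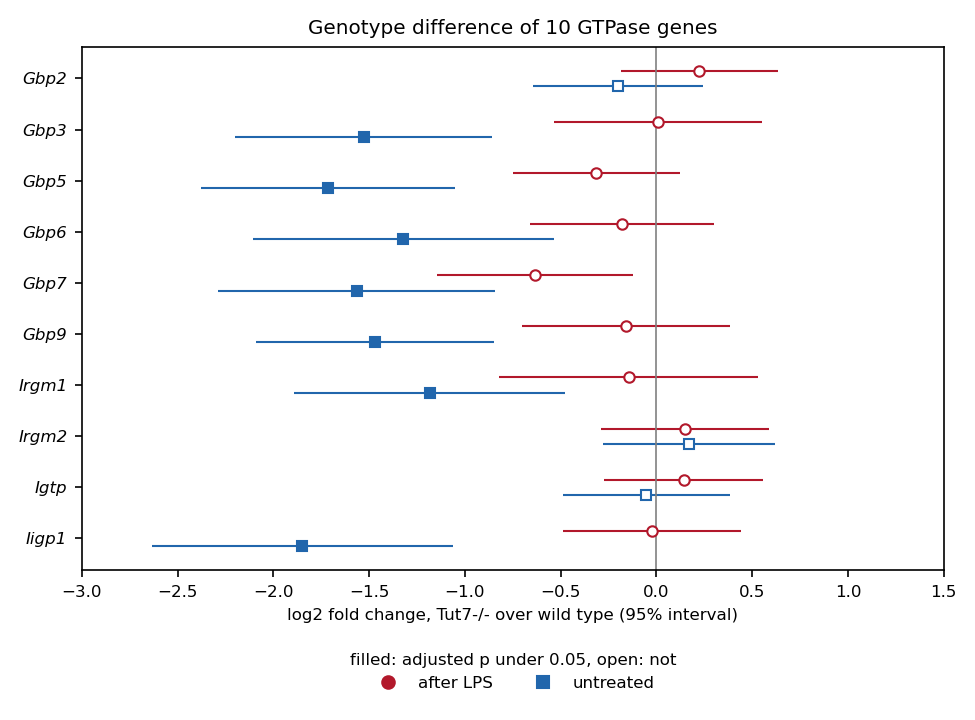
Log2 fold change of each GTPase gene in Tut7-/- over wild-type BMDMs, with 95% intervals from the edgeR model, after LPS (circles) and untreated (squares); filled symbols passed an adjusted p of 0.05. The 7 filled squares lie between -1.85 and -1.18, and no circle is filled.

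The size of the untreated difference varied with the library taken. The 2 KO-Ctrl libraries were far apart for 5 of the 7 genes. Replicate 2 had 2.82 times the CPM of replicate 1 for *Irgm1*, 2.16 times for *Gbp6*, 2.13 for *Gbp3*, 2.02 for *Gbp7* and 1.95 for *Gbp9*, against 1.05 for *Gbp5*, 1.13 for *Iigp1*, 1.08 for *Gbp2*, 1.22 for *Irgm2* and 0.987 for *Igtp*. Without KO-Ctrl replicate 1 the median log2 fold change of the 10 was -1.02, beside 0 over all genes, and *Irgm1* moved to -0.64. Without KO-Ctrl replicate 2 these medians were -1.98 and -0.05. They were -1.31 and 0 without WT-Ctrl replicate 1, and -1.30 and 0.01 without WT-Ctrl replicate 2.

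Correcting each library for the length and GC content of transcripts, an alternative added after the data were seen, left 2 of the 7 calls, *Gbp5* (-1.22, adjusted p = 0.0043) and *Gbp3* (-0.98, adjusted p = 0.014). Calls fell over the whole table as well, with 952 of 11274 genes lower, against 2552 of 11501 without the correction. *Iigp1* was then at -0.80 (adjusted p = 0.099), *Gbp6* at -0.70 (0.14), *Irgm1* at -0.63 (0.34), *Gbp9* at -0.45 (0.15) and *Gbp7* at -0.39 (0.34). Over the alternatives these 5 adjusted p-values were the highest of each gene, and the lowest were 3.6e-05, 0.0013, 7.3e-09, 1.1e-06 and 4.6e-05 in the same order. *Irgm2* passed as higher (0.69, adjusted p = 0.0032, up to 0.94 in other alternatives). The GTPase transcripts are poor in GC, from 39.3% for *Iigp1* (percentile 3.34 of tested genes), 41.7% for *Gbp7* and 42.7% for *Gbp9* to 49.5% for *Igtp* (percentile 47.2). The length and GC trend between KO-Ctrl and WT-Ctrl libraries at these genes was -1.21 (log2) for *Gbp7*, -1.05 for *Iigp1* and -1.04 for *Gbp9*, between -0.63 and -0.40 for *Gbp2*, *Gbp3*, *Gbp5*, *Gbp6*, *Irgm1* and *Irgm2*, and 0.04 for *Igtp*. Between KO-LPS and WT-LPS libraries the same trend ran from -0.33 to 0.03. Whether the trend is technical was not tested.

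**Figure D5:**
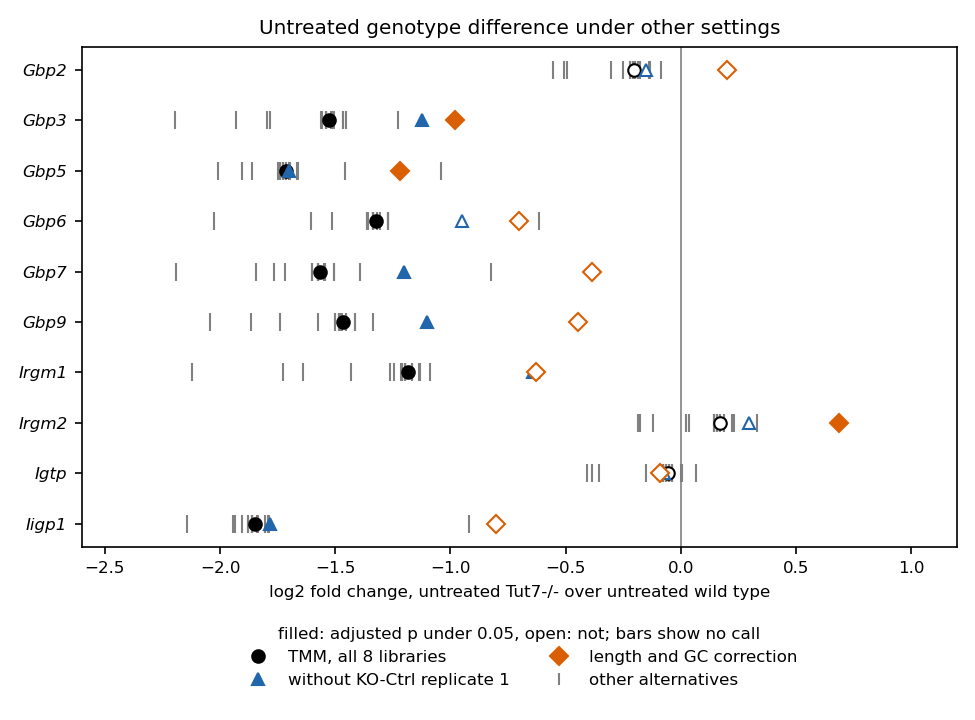
Log2 fold change of each GTPase gene in untreated Tut7-/- over untreated wild-type BMDMs in the edgeR model of all 8 libraries (circles), without KO-Ctrl replicate 1 (triangles), with a length and GC correction (diamonds) and under the other alternatives (grey bars); filled symbols passed an adjusted p of 0.05. With the correction only Gbp3 (-0.98), Gbp5 (-1.22) and, as higher, Irgm2 (0.69) are filled.

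Because levels after LPS were close and levels before LPS were not, the LPS response itself was compared between the genotypes. The comparison uses the same libraries as those above and is not independent of them. The log2 response was higher in *Tut7*-/- than in wild-type BMDMs for 3 of the 10 genes and lower for 0, where 4.06% of all tested genes were higher and 0.435% lower. The 3 were *Iigp1* (difference 1.83 ± 0.43, adjusted p = 0.031), *Gbp3* (1.54 ± 0.41, adjusted p = 0.046) and *Gbp5* (1.40 ± 0.37, adjusted p = 0.048). *Gbp9* (1.31, adjusted p = 0.062), *Gbp6* (1.14, 0.13), *Irgm1* (1.04, 0.19) and *Gbp7* (0.93, 0.19) had an unadjusted p under 0.05 and did not pass. At that p with a log2 difference over 0.2 in size, 2117 of 11501 genes were higher. *Gbp2* (0.42), *Igtp* (0.20) and *Irgm2* (-0.02) had 95% intervals that included 0. The median over the 10 was 1.09, beside 0.15 over all genes. The 3 calls were close to the threshold. The number of calls was 0 with DESeq2's size factors, where 190 of 11501 genes were higher. It was also 0 with the length and GC correction, where 206 of 11274 genes were higher. Without KO-Ctrl replicate 1 the median difference of the 10 was 0.64, beside 0.13 over all genes. Without KO-Ctrl replicate 2 these medians were 1.71 and 0.21.

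The interferon pathway around these genes was examined in lists from general knowledge. Genotype differences of list genes, here and in the lists that follow, come from the model of all 8 libraries. Whether those before LPS hold with the length and GC correction was not examined. No transcript of *Ifng*, *Ifna2* or *Ifna4* was counted in any library, which allows up to 3 counts in each. *Ifnb1*, which encodes interferon beta, had 25 and 21 counts in KO-LPS, 20 and 21 in WT-LPS and 0 in all untreated libraries, and its level after LPS was 3.95 and 2.88 CPM in KO-LPS against 4.35 and 6.88 CPM in WT-LPS (log2 fold change -0.69, adjusted p = 0.6). Of 5 tested ligand and receptor genes, 4 were higher and 1 lower with LPS in each genotype, where 34.8% of all genes were higher in *Tut7*-/- and 27% in wild-type cells. The one that fell was *Ifngr1*, a receptor chain for interferon gamma (-1.21 in *Tut7*-/- and -1.71 in wild type), beside 33.2% and 30.4% of all genes lower in the 2 genotypes. *Ifngr1* was also the 1 gene of the list that differed by genotype before LPS (-0.60, adjusted p = 0.025).

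Of 14 signalling kinases and transcription factors, 13 rose and 1 fell with LPS in *Tut7*-/- cells, where 34.8% of all genes rose, and 13 rose in wild-type cells, where 27% did. *Irf1*, a transcription factor that activates GTPase genes, had 698 and 665 CPM in KO-LPS, 759.9 and 764 CPM in WT-LPS, 84.1 and 78.6 CPM in KO-Ctrl and 66.7 and 69.6 CPM in WT-Ctrl. Its log2 fold change in *Tut7*-/- over wild-type cells was -0.16 after LPS and 0.25 before (adjusted p = 0.79 and 0.31), neither past the test. No gene of this list passed between genotypes after LPS (edgeR), and 1 was higher at an unadjusted p under 0.05. At that p with a log2 fold change over 0.2 in size, 831 of 11501 genes were higher. Before LPS the calls were no more frequent than over all genes, of which 14.8% were higher and 22.2% lower: of the 14, 2 were higher in *Tut7*-/- cells, *Irf7* (0.80, adjusted p = 0.012) and *Irf8* (0.56, 0.039), and 2 were lower, the receptor kinases *Jak2* (-1.64, adjusted p = 0.00045) and *Jak1* (-0.76, 0.021). *Jak2* had 5.65 and 6.38 CPM in KO-Ctrl against 19.9 and 17.8 CPM in WT-Ctrl libraries, and its LPS response was also higher in *Tut7*-/- cells (difference 1.34, adjusted p = 0.031).

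Most other listed relatives of these GTPases also rose with LPS, in a list that was not limited to genes known to be interferon-inducible. Of 18 tested, 17 rose and 1 fell with LPS in each genotype, beside 34.8% of all genes higher in *Tut7*-/- and 27% in wild-type cells, the one that fell being *Irgq* (-1.96 in *Tut7*-/- and -1.19 in wild type). *Ifi47* (Irgd), an immunity-related GTPase, had 1749 and 1864 CPM in KO-LPS, 1635 and 1623 CPM in WT-LPS, 36.4 and 33.4 CPM in KO-Ctrl and 49.0 and 42.1 CPM in WT-Ctrl, with no genotype difference past the test. Before LPS 6 of the 18 were lower in *Tut7*-/- cells and 0 higher, beside 22.2% and 14.8% of all genes. The largest log2 fold changes were -2.52 for *Gbp4*, -2.42 for *Gm4951*, -1.99 for *Gbp8* and -1.46 for *9930111J21Rik2*. These rest on few reads. The raw counts in KO-Ctrl libraries were 0 and 5 for *Gbp4*, 4 and 12 for *Gm4951*, 3 and 11 for *Gbp8* and 8 and 15 for *9930111J21Rik2*. After LPS 1 of the 18 passed, the giant GTPase gene *Gvin1*, with 1467 and 1268 CPM in KO-LPS against 2519 and 2732 CPM in WT-LPS (-0.94, adjusted p = 0.037). *Gm4951* was the 1 gene of the list whose LPS response differed (2.02 higher in *Tut7*-/- cells, adjusted p = 0.028), which rests on the same low KO-Ctrl counts.

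Further lists held genes through which the GTPases act. Of 8 genes of cytosolic LPS and DNA sensing, 7 rose with LPS in *Tut7*-/- cells, beside 34.8% of all genes, and 8 in wild-type cells, beside 27%. Between genotypes after LPS 0 passed (edgeR), and 2 were lower at an unadjusted p under 0.05. At that p with a log2 fold change over 0.2 in size, 649 of 11501 genes were lower. *Casp4*, which encodes caspase-11, the sensor that acts with the chromosome 3 guanylate-binding proteins on bacterial LPS, had 373 and 335 CPM in KO-LPS, 352 and 328 CPM in WT-LPS, 9.10 and 8.41 CPM in KO-Ctrl and 15.4 and 9.64 CPM in WT-Ctrl. Before LPS 3 of the 8 were lower in *Tut7*-/- cells, beside 22.2% of all genes, the DNA sensor gene *Aim2* (-1.78, adjusted p = 0.002), *Il18* (-0.99, 0.043) and *Casp1* (-0.90, 0.01). In KO-Ctrl libraries *Aim2* had 23 and 95 raw counts and *Il18* had 23 and 20. Of 13 genes of vacuole targeting and ubiquitin-like conjugation, which direct the GTPases to vacuoles, 4 rose and 5 fell with LPS in *Tut7*-/- and 5 rose and 4 fell in wild-type cells, shares near those of all genes (34.8% higher and 33.2% lower in *Tut7*-/-, 27% and 30.4% in wild-type cells). The ubiquitin ligase gene *Trim21* rose most, by 4.40 (log2) in *Tut7*-/- and 4.04 in wild-type cells. Before LPS 5 of the 13 were higher in *Tut7*-/- cells and 0 lower, beside 14.8% and 22.2% of all genes, among them *Map1lc3a* (0.88, adjusted p = 0.022), *Gabarapl1* (0.81, 0.012) and *Atg7* (0.79, 0.013). Of 5 prenyl transferase genes, 1 rose and 3 fell with LPS in each genotype, beside the same shares of all genes. The 3 were *Fnta* (-0.99 in *Tut7*-/- and -0.94 in wild-type cells), *Fntb* (-1.19 and -1.04) and *Rabggta* (-1.91 and -1.78). *Pggt1b*, a subunit of the enzyme that adds geranylgeranyl groups, was the 1 that rose with LPS (2.87 in *Tut7*-/- and 1.56 in wild-type cells) and the 1 that was lower before LPS in *Tut7*-/- cells (-1.21, adjusted p = 0.014).

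The genes outside the lists whose log2 CPM followed the mean profile of the 10 most closely over the 8 libraries were *Rsad2* (viperin, an antiviral protein), *Enpp4*, *Aida*, *Ctsc* (cathepsin C) and *Dusp16* (a MAP kinase phosphatase), with Pearson r from 0.9993 for *Dusp16* to 0.9998 for *Rsad2*. The members themselves correlated with that profile at 0.99 for *Irgm2* to 0.9996 for *Gbp6*. These values describe 8 libraries of 4 groups and carry no test, and the libraries share the large difference between LPS-treated and untreated cells.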

How the data were processed

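Reads from poly-dT selected RNA were mapped by the authors to mouse RefSeq RNA of mm10 and quantified with FANSe3, without a version or strand setting in the sources used here. Processing notes by the submitters list edgeR and mm10. The authors deposited whole-number read counts and RPKM values for each gene symbol, and a second sheet repeating the RPKM was not used. No column of per-sample values was left unmapped. The analysis of counts used edgeR 4.0.16 (R 4.3.3). Of 24539 genes, 11501 passed filterByExpr. After TMM scaling, all 8 libraries entered a single robust quasi-likelihood model of the 4 groups (4 residual degrees of freedom, biological coefficient of variation 18.5%). CPM are scaled by TMM, RPKM are the deposited values. Standard errors and 95% intervals come from the quasi-likelihood F statistic. P-values were adjusted over all tested genes, and 0.05 was the threshold.

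No 2 libraries were identical, and the 2 of a group differed by more than sampling of reads (chi-square per gene 2.47 to 41.1). The 10 genes, the lists and the tests were chosen with earlier results of these data known. All 10 genes are named, then list genes past the test with the largest log2 fold changes, *Irf1*, *Ifnb1*, *Ifng*, *Ifi47*, *Casp4* and *Tut7*, and the 5 genes most like the mean profile; 1 gene that this rule names is not reported here. Shared stretches of 75 bases were counted in GENCODE vM21 transcripts, and gene positions and start-site sequences are from RefSeq (GRCm38.p6). Exact permutation of 2 against 2 libraries cannot go below p = 0.33 and was not used. The alternatives comprised size factors from DESeq2, library size alone, DESeq2 1.42.0, no filter and a minimum of 10 counts, fits of the 2 groups compared, edgeR's exact test, a replicate block, limma 3.58.1 on log2(RPKM + 1) and log2(RPKM + 0.1), an unadjusted p under 0.05 with a log2 fold change over 0.2, and leaving out each library, where the spread of the remaining single library is taken from the other groups. A correction by splines on transcript length and GC content (5 degrees of freedom each, fitted per library) and leaving out both KO-Ctrl libraries were chosen after seeing the data. The pipeline was tested on simulated data. Sequences were aligned with Biopython 1.88, and figures were drawn with matplotlib 3.10.9.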

Additional observations from a re-analysis of the deposited data

Results flagged for a closer look

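The LPS response of 3 GTPase genes was larger in *Tut7*-/- than in wild-type BMDMs by the test of the difference itself, by 1.827 (log2) for *Iigp1*, 1.535 for *Gbp3* and 1.399 for *Gbp5* (edgeR's quasi-likelihood test, adjusted p = 0.031, 0.046 and 0.048). All 3 were higher after LPS in every library of both genotypes, and their levels after LPS gave no genotype difference past the test. The call held in 7 of 17 alternatives for *Gbp3* (adjusted p 3.1e-05 to 0.25), 6 of 17 for *Gbp5* (0.0086 to 0.27) and 7 of 16 for *Iigp1* (0.0021 to 0.21).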

How the results depend on the processing

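The LPS calls of the 10 genes held in every alternative, with 8 of 8 tested at a minimum of 10 counts, a filter that removed *Gbp6* and *Iigp1*. With all 8 libraries, the count of genes lower in untreated *Tut7*-/- cells stayed at 5 to 8, except that it was 2 with the length and GC correction. It was 5 of 8 tested at a minimum of 10 counts, where 2054 of 8444 genes were lower. It was 8 with limma on log2(RPKM + 1) and log2(RPKM + 0.1), where 3650 and 3288 of 11501 genes were lower. With the correction 952 of 11274 genes were lower. With 1 library left out, the median log2 fold change of the 10 ran from -1.98 to -1.02. The calls after LPS, 0 in the model of all libraries, were 2 with only the 4 libraries compared and 2 with edgeR's exact test. These 2 fits called 1012 and 1147 of 10088 genes lower. There was 1 call with an unadjusted p (649 of 11501 genes lower) and 1 without both KO-Ctrl libraries (482 of 11283 lower). This list is not complete. It omits the calls of fits with 1 library left out, because 1 group then holds a single library. In those fits the median log2 fold change of the 10 after LPS ran from -0.27 to 0.06. The count of larger LPS responses in *Tut7*-/- cells was 3, where 467 of 11501 genes were higher. It was 5 without a filter (1225 of 15490 genes) and 7 with an unadjusted p (2117 of 11501). It was 1 with limma on log2(RPKM + 1) (1273 of 11501). It was 0 with DESeq2's size factors (190 of 11501), at a minimum of 10 counts (148 of 8444) and with the length and GC correction (206 of 11274). For fits with 1 library left out, calls are again not listed. Their median difference of the 10 genes ran from 0.64 without KO-Ctrl replicate 1 to 1.71 without KO-Ctrl replicate 2 (log2). The medians over all genes in these 2 fits were 0.13 and 0.21. The fits of 2 groups give no such difference and were not run for it. DESeq2's Wald test called 0 of the 10 genes after LPS, 7 before LPS and 2 for the difference. Over the whole table it called 2136 genes lower before LPS and 405 higher for the difference.

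Library size alone and RPKM moved the median of all genes in untreated *Tut7*-/- over wild-type cells to -0.28 and, for log2(RPKM + 0.1), -0.33, and limma then also called *Gbp2* (-0.55, adjusted p = 0.027); no gene called in the model of all libraries changed sign in any alternative, while *Gbp2*, *Irgm2* and *Igtp* before LPS did, and of these *Irgm2* was called as higher once, with the length and GC correction. That correction called 1160 genes higher and 952 lower before LPS, against 1707 and 2552. The cause of these differences was not tested. Correlations of the replicate differences between groups ran from -0.17 (KO-LPS with KO-Ctrl) to 0.29 (KO-Ctrl with WT-Ctrl). They do not settle whether replicate numbers pair the libraries. A replicate block gave 10, 10, 0, 7 and 3 calls for the 5 comparisons. With it 2625 of 11501 genes were lower before LPS and 529 had a larger LPS response in *Tut7*-/- cells. Before LPS, *Gbp5*, *Gbp6*, *Gbp7* and *Iigp1* had under 30 counts in each KO-Ctrl library.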
